A study of Homo sapiens with 12 samples.

Results

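The enzymes that write, copy and erase DNA methylation were followed through 12 RNA-seq libraries of 3 human cancer cell lines. The group holds 8 genes, taken by name from the 25647 genes listed in every library's table: DNMT1 and UHRF1, which copy methylation at replication, DNMT3A, DNMT3B and DNMT3L, which set new marks, and TET1, TET2 and TET3, which oxidise them. The lines were MHCC97H (hepatocellular carcinoma), A549 (lung adenocarcinoma) and HCT116 (colorectal carcinoma). Each was sequenced once untreated, once after 1 μM TSA (trichostatin A, an inhibitor of histone deacetylases), once after 50 μM GSK126 (which blocks EZH2, a histone methyltransferase) and once after 100 μM S2101 (which blocks LSD1, a histone demethylase). The medium was DMEM for A549 and MHCC97H but RPMI for HCT116, and its effect cannot be told apart from that of the line. The sources used here do not give the duration of treatment or a vehicle for the untreated cells. Each condition therefore has 3 libraries, 1 per line. For each gene the tests of all compounds shared 1 estimate of the spread over lines, taken from all 12 libraries. There was no repeat culture within a line.

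DNA methylation is the addition of a methyl group to cytosine, mostly where it is followed by guanine (CpG). After replication the new strand is unmethylated. UHRF1 recognises the half-methylated CpG and brings in DNMT1, which methylates the new strand, and both genes are known to be expressed most strongly in dividing cells. DNMT3A and DNMT3B methylate DNA without such a template, and DNMT3L is a catalytically inactive partner that stimulates them, known mainly from germ cells and early embryos. TET1, TET2 and TET3 oxidise methylcytosine to hydroxymethylcytosine and beyond, after which the base can be lost through replication or removed by repair.

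The 250 bases upstream of the annotated starts of UHRF1 and DNMT1 are shown because these were the members that moved together with replication genes in the results that follow. The sequences are from RefSeq (GRCh38.p14), which had windows for 7 of the 8 genes. Capitals mark a match to one of 4 spellings of the E2F-type motif, TTTCCCGC, TTTCGCGC, TTTGGCGC or TTTGCCGC, searched on both strands. E2F factors are known to drive genes of the G1 to S transition. Each sequence is given 5′ to 3′ on the gene's own strand.
UHRF1 start 1, chr19:4909251-4909500 (+): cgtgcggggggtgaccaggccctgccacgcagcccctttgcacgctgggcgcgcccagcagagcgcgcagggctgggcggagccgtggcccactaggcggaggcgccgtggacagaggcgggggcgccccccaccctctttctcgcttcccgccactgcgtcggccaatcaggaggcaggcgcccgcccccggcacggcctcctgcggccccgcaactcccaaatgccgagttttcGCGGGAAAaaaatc
UHRF1 start 2, chr19:4909894-4910143 (+): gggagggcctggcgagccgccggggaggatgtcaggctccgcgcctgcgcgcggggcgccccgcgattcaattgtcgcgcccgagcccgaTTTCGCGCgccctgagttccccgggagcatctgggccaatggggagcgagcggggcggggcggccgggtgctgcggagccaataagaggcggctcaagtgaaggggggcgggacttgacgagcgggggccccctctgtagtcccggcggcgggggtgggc
DNMT1, chr19:10194954-10195203 (-): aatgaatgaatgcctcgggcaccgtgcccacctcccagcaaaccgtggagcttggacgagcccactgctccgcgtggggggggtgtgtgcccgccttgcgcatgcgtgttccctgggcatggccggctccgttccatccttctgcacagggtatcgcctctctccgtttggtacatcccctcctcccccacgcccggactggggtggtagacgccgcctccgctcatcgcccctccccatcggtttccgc
The first UHRF1 window holds GCGGGAAA, the reverse complement of TTTCCCGC, with its first base 14 bases before the start. The second UHRF1 window holds TTTCGCGC with its first base 160 bases before the start. The third annotated UHRF1 window, the DNMT1 window and the 14 windows of DNMT3A, DNMT3B, TET1, TET2 and TET3 held none of these letters. Over all genes, 979 of 35116 upstream windows (2.79%) held at least 1 match. The 3 UHRF1 windows held 28, 32 and 41 CpGs and the DNMT1 window 21, against a median of 11 over all windows.

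Between 14468304 and 19061367 counts per library were assigned to the listed genes, so that 3 reads, taken as the limit of detection, correspond to 0.157 to 0.207 CPM (counts scaled to a common library size). Levels are given as CPM scaled by TMM factors of 0.889 to 1.12, unless authors' RPKM (the same scaled also by transcript length) is named. After a filter on low counts 16929 genes were tested, 7 of the 8 members among them; DNMT3L did not pass. One library stood apart. The 85 genes with at most 1 read in untreated A549 and at least 5 CPM in TSA-treated A549 held 8.11% of their TSA sum in the A549 S2101 library, against 2.74% in A549 GSK126 and 0.804% and 0.752% for the corresponding genes in the S2101 libraries of MHCC97H and HCT116. Leaving that library out changed no call among the 7 tested members. Of 8 liver markers, 4 reached 1 CPM in untreated MHCC97H. ALB, APOB, AFP, SERPINA1 and HNF4A did so in at least 1 MHCC97H library. The 6 intestine markers summed to 150.1 to 545 CPM in this line. CDX2, VIL1, CDH17 and LGALS4 reached 1 CPM in a library, and CDX1 was at 0. HCT116 expressed CDX2 and CDH17 of 6 intestine markers, at a summed 12.9 to 15.3 CPM, with CDX1 at 0. In A549 the same 6 summed to 9.39 to 27.6 CPM, with VIL1, CDH17 and LGALS4 reaching 1 CPM in a library and CDX1 at 0. A549 held the 6 lung alveolar markers at a summed 2.30 to 4.46 CPM, of which SFTPB alone reached 1 CPM in an untreated or treated library, whereas HCT116 held these markers at 4.35 to 6.85 CPM, with NKX2-1, NAPSA and SFTPB reaching 1 CPM.

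Per length of transcript, the copying machinery was by far the most abundant. In untreated cells UHRF1 stood at 52.7 ± 17.8 RPKM and DNMT1 at 52.0 ± 22.1 RPKM (mean ± SD, n = 3 lines), and their ranges overlapped. DNMT3B followed at 10.03 ± 6.83 RPKM, and its highest line (17.8 RPKM) stayed under the lowest DNMT1 value (38.7 RPKM). TET3 was at 4.80 ± 2.63 RPKM, DNMT3A at 3.88 ± 2.65 RPKM and TET2 at 2.01 ± 0.822 RPKM, and each of these overlapped its neighbour in the order. TET1 was lowest among the genes detected in untreated cells, at 0.581 ± 0.388 RPKM, and its highest line (0.938 RPKM) lay under the lowest TET2 value (1.15 RPKM). DNMT1 made up 82.2% of the summed RPKM of the methyltransferases in untreated MHCC97H, 80.5% in A549 and 76.6% in HCT116. DNMT3B exceeded DNMT3A 8.20-fold in untreated MHCC97H and 2.97-fold in HCT116, whereas the ratio in A549 was 1.03. TET3 was the leading TET transcript in all 12 libraries, with 45.03% to 71.1% of the summed TET RPKM. RPKM divides by 1 transcript length per gene, so an isoform of another length would shift these levels.

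**Figure D1:**
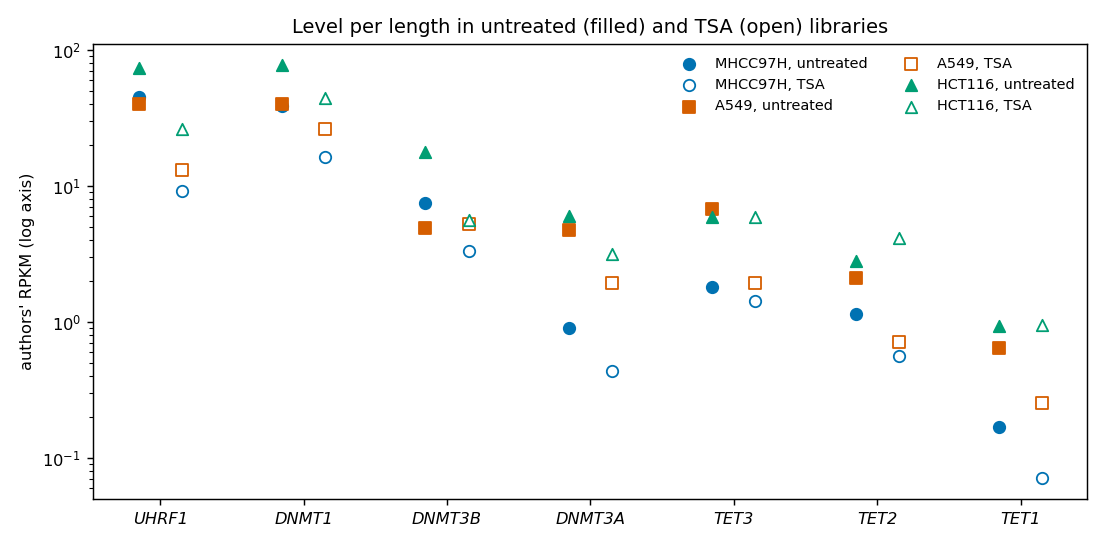
Authors' RPKM of 7 genes (log axis) in the untreated (filled) and TSA-treated (open) library of each line, 1 point per library. Untreated UHRF1 and DNMT1 lie between 38.7 and 77.6 RPKM, while untreated TET1 lies between 0.169 and 0.938 RPKM.

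TSA lowered 3 of the 7 tested genes and raised none: DNMT1 to 48.6% of untreated, DNMT3A to 41.6% and UHRF1 to 26.6% (fitted over the 3 lines). These calls used edgeR's quasi-likelihood test with the cell line as a term, at a Benjamini-Hochberg adjusted p under 0.05 over all genes tested. All 7 fitted changes were negative, with a median of -1.01 on the log2 scale. Over all 16929 genes the median change was 0.08 and 46.5% of changes were negative. TSA called 34.6% of all genes in either direction and 17.2% as lower, so the 3 of 7 members stand against a large background response. GSK126 and S2101 called none of the 7 genes, and they called 0% of all genes. The lowest edgeR adjusted p of any gene was 0.0605 for GSK126 and 0.939 for S2101. At an unadjusted p under 0.05 GSK126 had 2809 genes (16.6%) and 4 of the members, and S2101 had 852 genes (5.03%) and 1 member. DESeq2 called 1206 genes under GSK126, DNMT1 and UHRF1 among them, and 18 under S2101 with no member. The edgeR tests of these compounds also carry the spread of the TSA libraries. With those left out, edgeR called 2114 of 16201 genes under GSK126, DNMT1, TET1 and UHRF1 among them, and 0 under S2101.

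**Figure D2:**
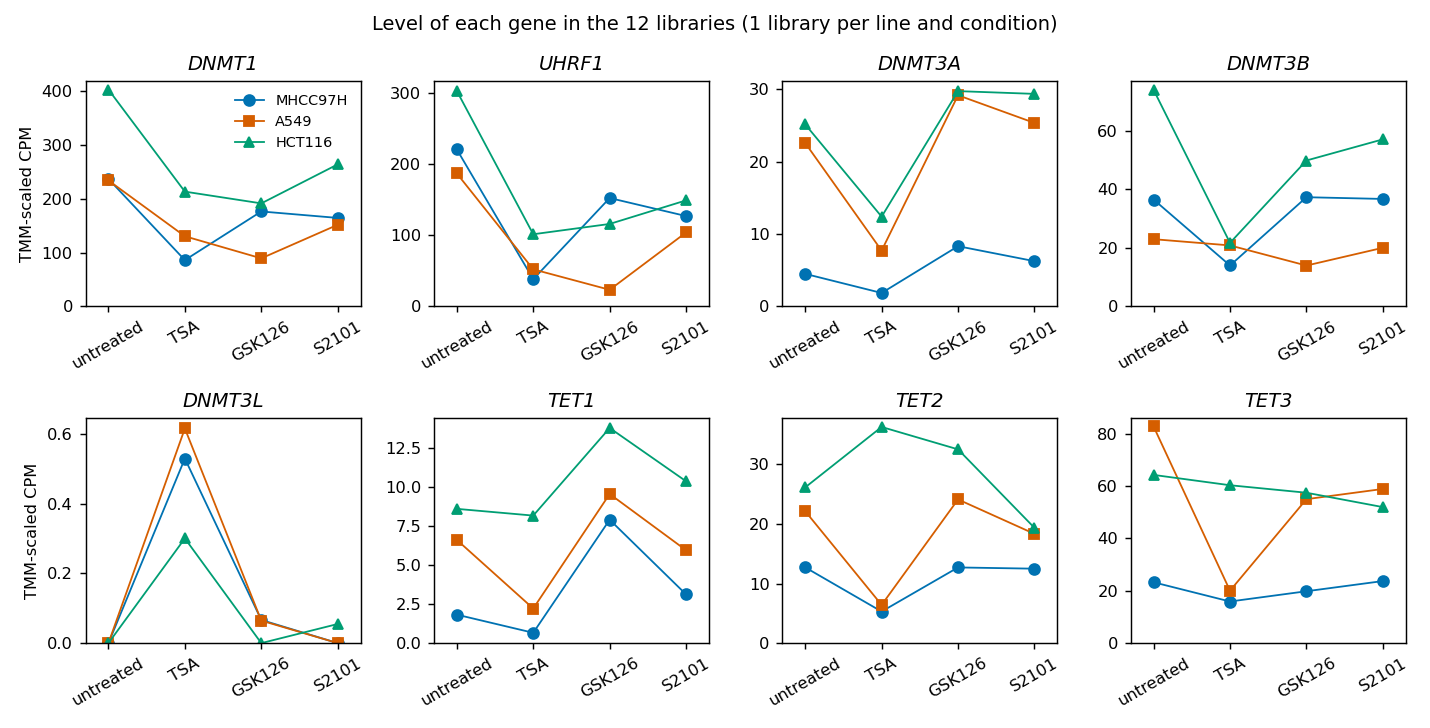
TMM-scaled CPM of the 8 genes in all 12 libraries. Each point is 1 library and lines join the libraries of a cell line; DNMT1 and UHRF1 are highest in the untreated library of each line, and DNMT3L reaches 0.3 CPM or more in the TSA libraries alone.

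DNMT1 (chromosome 19, 10133346 to 10194953, GRCh38) stood in untreated cells at 236.5 CPM in MHCC97H, 233.7 in A549 and 402.4 in HCT116. With TSA it was at 85.9, 130.2 and 213 CPM in the same order. Every TSA library lay under every untreated one, as it did for 11.2% of all genes. The fitted change was -1.04 ± 0.25 (log2 ± SE, edgeR adjusted p = 0.0131). With GSK126 DNMT1 was at 176.2, 89.2 and 191.2 CPM, again all under the untreated values, which held for 5.44% of all genes. The GSK126 change of -0.92 ± 0.25 did not pass edgeR's threshold (adjusted p = 0.125). With S2101 the levels were 164.2, 151.5 and 263.6 CPM, which overlapped the untreated range because the HCT116 S2101 library exceeded the untreated libraries of the other two lines. Within each line S2101 held DNMT1 at 64.8% to 69.4% of untreated, and 21.0% of all genes were likewise lower in each line. The fitted change was -0.59 ± 0.25 (edgeR adjusted p = 0.939). The mean over lines was 290.9 ± 96.6 CPM untreated, 193.1 ± 61.4 with S2101, 152.2 ± 55.1 with GSK126 and 143.1 ± 64.5 with TSA (SD, n = 3), and the ranges of neighbours in this order overlapped.

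UHRF1 (chromosome 19, 4903080 to 4962154), the reader of half-methylated CpGs, had the largest fitted TSA change among the 7 tested members. It stood at 221, 187.2 and 303.3 CPM in untreated MHCC97H, A549 and HCT116. TSA took it to 38.3, 52.2 and 101.6 CPM, which is 17.3%, 27.9% and 33.5% of untreated within the line. Every TSA library lay under every untreated one, as for 11.2% of all genes. The fitted change was -1.91 ± 0.48 (log2 ± SE, edgeR adjusted p = 0.0161). GSK126 gave 152.6, 23.4 and 116.1 CPM, all below the untreated libraries, as for 5.44% of all genes. A549 was the lowest of the 12 libraries, at 12.5% of untreated, while MHCC97H kept 69.1%. The GSK126 change of -1.42 ± 0.48 did not pass (edgeR adjusted p = 0.18). S2101 gave 127.2, 104.1 and 149.3 CPM, under every untreated library, as for 2.58% of all genes, and the change of -0.89 ± 0.47 did not pass (edgeR adjusted p = 0.939). The ratio of UHRF1 to DNMT1 in RPKM was 1.17, 1.00 and 0.942 in the untreated lines and 0.557, 0.501 and 0.596 with TSA, so that UHRF1 was reduced further than DNMT1 in each line.

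Both genes moved with the genes of DNA replication. Of 22 S phase and E2F genes, 17 were called lower under TSA and none higher, with a median change of -1.19. Of 13 G2 and M phase genes, 10 were called lower, with a median of -1.47. Over all genes 17.2% were called lower. Of the genes in these lists, TYMS (thymidylate synthesis) changed by -3.43 ± 0.42 (log2 ± SE, edgeR adjusted p = 0.00169). MCM5 (replicative helicase) changed by -2.03 ± 0.38 (edgeR adjusted p = 0.00541) and CCNA2 (cyclin A2) by -2.66 ± 0.54 (edgeR adjusted p = 0.00711). Within MHCC97H the S phase median was -1.39 with TSA, -0.62 with GSK126 and -0.73 with S2101, beside UHRF1 ratios of -2.50, -0.53 and -0.79. Within A549 the S phase medians were -1.06, -1.97 and -0.49 in the same order, beside UHRF1 ratios of -1.82, -2.95 and -0.84. Within HCT116 they were -1.32, -1.37 and -0.68, beside UHRF1 ratios of -1.57, -1.38 and -1.02. These ratios are log2 values with 1 CPM added, from single libraries without a replicate. The lowest UHRF1 ratio in A549 was thus under GSK126, where the S phase median was also lowest, and the lowest in MHCC97H was under TSA, as was its S phase median. In HCT116 the UHRF1 ratio was lowest under TSA and the S phase median under GSK126. The part of the replication genes in the DNMT1 and UHRF1 results was not tested, and in these bulk libraries fewer dividing cells and less RNA per cell cannot be told apart. Across the 12 libraries, with CPM centred within each line, the genes most like DNMT1 were RRM1 (ribonucleotide reductase, Pearson r = 0.986), FEN1 (flap endonuclease, 0.986) and CCAR2 (0.983). Those most like UHRF1 were NCAPH (condensin, 0.987), FEN1 (0.983) and POLE (DNA polymerase epsilon, 0.979), and DNMT1 and UHRF1 correlated with each other at 0.972. The libraries share treatments, so these correlations describe the set and carry no test.

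**Figure D3:**
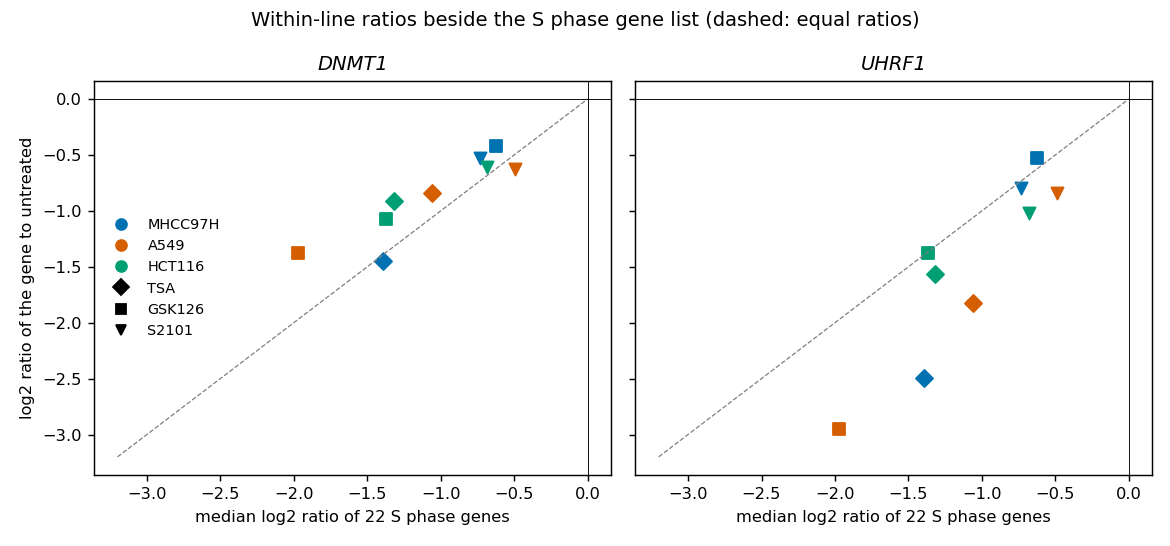
Log2 ratio to the untreated library of the same line (1 CPM added) for DNMT1 (left) and UHRF1 (right), against the median ratio of 22 S phase genes. Each of the 9 points is 1 treated library, the dashed line marks equal ratios, and A549 with GSK126 is lowest on the S phase axis (-1.97) and for UHRF1 (-2.95).

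DNMT3A (chromosome 2, 25227874 to 25342590) fell with TSA, and its values with the other two inhibitors lay above untreated. It stood at 4.50 CPM in untreated MHCC97H, 22.6 in A549 and 25.1 in HCT116. With TSA it was at 1.86, 7.71 and 12.4 CPM, lower in each line (41.3%, 34.2% and 49.3% of untreated), as were 26.5% of all genes. The groups overlapped because MHCC97H expressed so little. The fitted TSA change was -1.27 ± 0.22 (log2 ± SE, edgeR adjusted p = 0.00381). With GSK126 it was at 8.31, 29.2 and 29.7 CPM and with S2101 at 6.25, 25.3 and 29.3 CPM. These lay above the untreated library in all 3 lines, as for 22.01% of all genes with GSK126 and 17.89% with S2101. Neither increase passed (0.50 ± 0.21, edgeR adjusted p = 0.273, and 0.28 ± 0.21, edgeR adjusted p = 0.966). Tested directly, DNMT3A was lower with TSA than with GSK126, with a log2 difference of -1.76 ± 0.22 (edgeR adjusted p = 0.00209), and lower than with S2101, with a difference of -1.54 ± 0.22 (edgeR adjusted p = 0.00355). Without A549 these differences were -1.66 and -1.43 (edgeR adjusted p = 0.0712 and 0.0816), and without MHCC97H the one against S2101 was -1.45 (edgeR adjusted p = 0.0693). Those contrasts called 29% and 26.6% of all genes, and 14.2% and 13.1% as lower. The genes most like DNMT3A across the libraries were ADAMTS10 (r = 0.982), ZNF740 (0.98) and FAM160B2 (0.979).

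DNMT3B (chromosome 20, 32762385 to 32809356), the other de novo enzyme, was at 36.5, 23.0 and 74.0 CPM in untreated MHCC97H, A549 and HCT116 and at 14.0, 20.8 and 21.7 CPM with TSA. Every TSA library lay under every untreated one, as for 11.2% of all genes. Yet A549 kept 90.7% of its untreated level, with a counting interval of the log2 ratio from -0.36 to 0.08. MHCC97H kept 38.3% and HCT116 29.3%. The change of -1.01 ± 0.36 missed the threshold in edgeR (adjusted p = 0.0536) and passed in DESeq2 (adjusted p = 0.033). GSK126 gave 37.3, 14.0 and 49.9 CPM and S2101 36.7, 20.03 and 57.1 CPM, both overlapping the untreated libraries. The fitted changes were -0.39 ± 0.35 and -0.20 ± 0.35 (edgeR adjusted p = 0.673 and 1). In A549 DNMT3A exceeded DNMT3B in RPKM with GSK126 and with S2101, with DNMT3B to DNMT3A ratios of 0.484 and 0.798 against 1.03 untreated. Most like DNMT3B were LARP4B (r = 0.968), DHRS11 (0.956) and C11orf84 (0.956).

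DNMT3L (chromosome 21, 44246339 to 44261897) was near the limit of detection. No read was counted in the 3 untreated libraries, which allows up to 3 reads of 47964421. TSA libraries held 8 reads in MHCC97H, 10 in A549 and 5 in HCT116. GSK126 libraries held 1, 1 and 0 reads and S2101 libraries 0, 0 and 1. The 23 TSA reads gave a level at least 8.30-fold higher than untreated, taken against a floor of 3 reads for the untreated group. Against the 3 reads of the 9 libraries without TSA the ratio was 25.2, with an exact 95% interval of 7.61 to 130.9 for counting error. Without the filter on low counts edgeR's adjusted p for TSA against untreated was 0.0183. Part of this gene, up to 129 exonic bases, overlaps an antisense transcript (AP001059.1, GENCODE 29). The sources used here do not say whether counting used strand, so reads of the 2 genes cannot be told apart there.

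Among the TET genes no change against untreated passed the test in the fit of all 12 libraries. TET1 (chromosome 10, 68560337 to 68694487) was at 1.83 CPM in untreated MHCC97H (26 reads), 6.62 in A549 and 8.61 in HCT116. With TSA it was at 0.663, 2.22 and 8.18 CPM, which is 36.3%, 33.5% and 94.97% of untreated, and the change of -0.87 ± 0.47 did not pass (edgeR adjusted p = 0.169). GSK126 gave 7.92, 9.57 and 13.8 CPM, above the untreated library in each line, as for 22.01% of all genes. In MHCC97H TET1 was 4.33-fold above untreated (119 against 26 reads, log2 counting interval 1.49 to 2.79). The GSK126 change of 1.13 ± 0.46 did not pass (edgeR adjusted p = 0.254). S2101 gave 3.12, 5.96 and 10.4 CPM, which overlapped the untreated range (0.25 ± 0.45, edgeR adjusted p = 1). Set directly against GSK126, TET1 was lower with TSA, by a difference of -2.01 ± 0.48 (log2 ± SE, edgeR adjusted p = 0.0149). That difference was -1.33 without MHCC97H (edgeR adjusted p = 0.109) and -1.96 without A549 (edgeR adjusted p = 0.15), past the threshold in neither. TET1 correlated with DNMT3A at 0.881 across the libraries, and LRRC75B (r = 0.949), LOC100129046 (0.94) and RTKN (0.932) were most like it.

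TET2 (chromosome 4, 105145875 to 105279803) had ratios of opposite sign in the lines with TSA. It was at 12.7, 22.1 and 26.1 CPM in untreated MHCC97H, A549 and HCT116, and with TSA at 5.30, 6.41 and 36.3 CPM. MHCC97H and A549 kept 41.7% and 28.9% of untreated, whereas HCT116 was at 138.8%. The fitted change over the lines was -0.68 ± 0.45 (edgeR adjusted p = 0.253), and without HCT116 it was -1.47 (edgeR adjusted p = 0.00688). With GSK126 TET2 was at 12.7, 24.1 and 32.5 CPM and with S2101 at 12.5, 18.3 and 19.3 CPM, both overlapping untreated, with changes of 0.14 ± 0.43 and -0.22 ± 0.43 (edgeR adjusted p = 0.939 and 1). SRSF8 (a splicing factor, r = 0.981), EPC1 (0.978) and TSSC4 (0.973) were most like it.

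TET3 (chromosome 2, 73983631 to 74135498) was at 23.3, 82.8 and 64.3 CPM in untreated MHCC97H, A549 and HCT116. With TSA it was at 20.03 CPM in A549 (24.2% of untreated), at 15.9 CPM in MHCC97H (68.4%) and at 60.3 CPM in HCT116 (93.9%), so that A549 differed most from its untreated library. The fitted change was -0.82 ± 0.33 (edgeR adjusted p = 0.0814), and without HCT116 it was -1.22 (edgeR adjusted p = 0.0363). With GSK126 TET3 was at 19.8, 55 and 57.5 CPM and with S2101 at 23.7, 58.9 and 52.0 CPM, changes of -0.35 ± 0.32 and -0.27 ± 0.32 (edgeR adjusted p = 0.682 and 1). TET2 and TET3 correlated at 0.847 across the libraries, and C9orf3 (r = 0.975), ZNF619 (0.975) and MATN2 (0.968) were most like TET3. The summed RPKM of the methyltransferases was 15.03, 5.24 and 10.5 times that of the TET genes in untreated MHCC97H, A549 and HCT116. With TSA it was 9.87, 11.7 and 4.80 times, so that the ratio was lower than untreated in MHCC97H and HCT116 and higher in A549, each from single libraries.

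**Figure D4:**
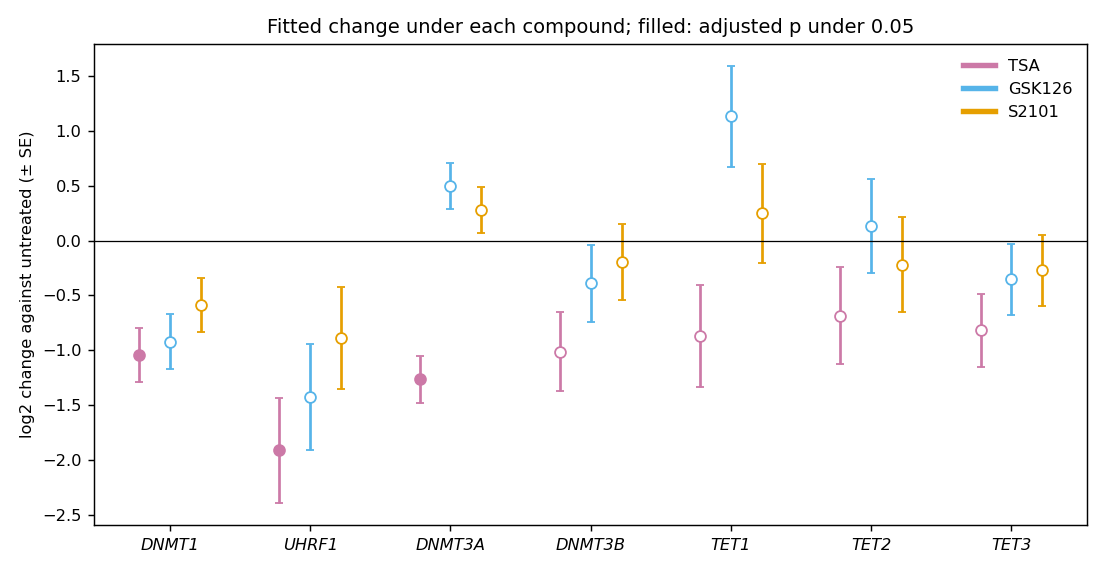
Fitted log2 change against untreated (± SE, 3 lines per condition) of 7 genes under each compound; filled points have an edgeR adjusted p under 0.05. The filled points are DNMT1, UHRF1 and DNMT3A under TSA, and DNMT3A and TET1 lie above 0 under GSK126 (0.50 and 1.13).

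Each of the 3 TSA calls was lost in some smaller fits and DNMT1 and DNMT3A were kept in others, while the changes stayed of like size. Without A549 DNMT1 changed by -1.10 (edgeR adjusted p = 0.0961), DNMT3A by -1.06 (edgeR adjusted p = 0.109) and UHRF1 by -1.91 (edgeR adjusted p = 0.0717), and 12 genes in all were called in place of 5851. Without HCT116 DNMT1 changed by -1.05 (edgeR adjusted p = 0.058) and UHRF1 by -2.04 (edgeR adjusted p = 0.0614), and without MHCC97H UHRF1 changed by -1.69 (edgeR adjusted p = 0.0655). In a fit of the 6 untreated and TSA libraries alone the changes were -1.07, -1.28 and -1.98 for DNMT1, DNMT3A and UHRF1 (edgeR adjusted p = 0.0755, 0.0864 and 0.0711). GSK126 and S2101 were not told apart for any member: their contrast called 0% of all genes, with 470 genes (2.78%) and no member at an unadjusted p under 0.05 in edgeR, and none in DESeq2. A miss of the threshold does not show that the 2 compounds act alike.

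The lines themselves differed in these genes. HCT116 against A549 had DNMT1 higher by 0.83 ± 0.21 (log2 ± SE over the 4 conditions, edgeR adjusted p = 0.0116) and DNMT3B higher by 1.23 ± 0.31 (edgeR adjusted p = 0.0108), where 43.7% of all genes were called. HCT116 against MHCC97H had 5 of 7 members higher, where 54.4% of all genes were called. DNMT3A was 4.96-fold higher (2.31 ± 0.19, edgeR adjusted p = 1.82e-05), TET1 4.002-fold (2.001 ± 0.41, 0.00292), TET3 2.91-fold (1.54 ± 0.29, 0.00166), TET2 2.87-fold (1.52 ± 0.39, 0.00883) and DNMT1 1.61-fold (0.69 ± 0.21, 0.0225). A549 against MHCC97H had DNMT3A 4.11-fold higher (2.04 ± 0.19, edgeR adjusted p = 6.79e-05) and TET3 2.47-fold higher (1.30 ± 0.29, edgeR adjusted p = 0.0057), where 43% of all genes were called. MHCC97H thus had the lowest DNMT3A in every condition, at 1.86 to 8.31 CPM against 7.71 to 29.2 in A549 and 12.4 to 29.7 in HCT116. UHRF1 did not pass in any of the 3 line contrasts. Each line is 1 source of cells, and its 4 libraries are 4 conditions, so the errors here are those over conditions. Both HCT116 against A549 calls were lost when the untreated or the S2101 libraries were left out, at differences of 0.85 and 0.83 for DNMT1 (edgeR adjusted p = 0.0593 and 0.0713) and of 1.07 and 1.12 for DNMT3B (edgeR adjusted p = 0.0818 and 0.0807). Without the GSK126 libraries DNMT3B differed by 1.05 (edgeR adjusted p = 0.0566). DNMT1 in HCT116 against MHCC97H differed by 0.66 without the untreated and 0.68 without the S2101 libraries (edgeR adjusted p = 0.102 in both). The differences thus stayed near those of all 12 libraries.

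Other genes of the pathway were grouped by role. Of 11 tested partners in maintenance and recruitment, TSA called 6 lower and none higher, beside 17.2% of all genes called lower, with a median of -0.72. They included CDCA7 and HELLS, which form a remodelling complex needed for methylation of heterochromatin. CDCA7 went from 31.6, 92.9 and 83.6 CPM to 5.57, 11.5 and 18.0 CPM (-2.56 ± 0.26, edgeR adjusted p = 0.00112) and HELLS changed by -1.29 ± 0.34 (edgeR adjusted p = 0.0188). USP7, the deubiquitinase that binds DNMT1 and UHRF1, changed by -0.97 ± 0.15 (edgeR adjusted p = 0.00267), and EHMT1, a histone H3K9 methyltransferase, by -0.87 ± 0.15 (edgeR adjusted p = 0.00411). Of 10 methyl-CpG readers 1 was called higher and 2 lower, a share near the 34.6% of all genes called. MBD1 was higher by 1.17 ± 0.15 (edgeR adjusted p = 0.00184), at 106.3, 80.0 and 72.8 CPM against 42.1, 33.0 and 39.8 untreated. MBD4, a glycosylase that acts at mismatched CpGs, changed by -0.91 ± 0.14 (edgeR adjusted p = 0.00263) and MBD2 by -0.70 ± 0.13 (edgeR adjusted p = 0.00528).

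Of 16 genes of active demethylation and TET partners, TSA called 2 higher and 6 lower, beside 34.6% of all genes called and 17.2% called lower. The uracil glycosylase UNG changed by -1.999 ± 0.33 (edgeR adjusted p = 0.00323) and the glycosylase NEIL3 by -2.35 ± 0.41 (edgeR adjusted p = 0.00818), with NEIL3 at 0 in MHCC97H throughout these conditions. GADD45B and GADD45G, stress-induced genes linked to demethylation, rose by 1.84 ± 0.61 (edgeR adjusted p = 0.0436) and 2.25 ± 0.56 (edgeR adjusted p = 0.0155), the latter from 1.19, 0.069 and 0.176 CPM untreated. Of 14 genes of methyl donor and TET cofactor metabolism 4 were called higher and 5 lower, again beside 34.6% and 17.2% of all genes. MAT1A, the liver enzyme that makes S-adenosylmethionine, rose by 3.54 ± 0.77 (edgeR adjusted p = 0.00935) from under 1 CPM. GNMT, which consumes S-adenosylmethionine, rose by 2.54 ± 0.60 (edgeR adjusted p = 0.0129). Its untreated levels of 0.0702, 0.276 and 0.293 CPM were near the limit of detection, and with TSA it was at 1.855, 1.295 and 0.662 CPM. MTHFD1, a folate enzyme, changed by -1.13 ± 0.17 (edgeR adjusted p = 0.00238). In each of these lists GSK126 and S2101 called no gene. For example, with GSK126 HELLS was at 28.0, 16.0 and 28.5 CPM against 42.0, 82.3 and 98.1 untreated (-1.49 ± 0.34, edgeR adjusted p = 0.0995).

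Germ-line genes whose promoters are known to be methylated in somatic cells were mixed under TSA. Of 20 listed, 11 could be tested. Of these 1 was called higher and 2 lower, beside 34.6% of all genes called and 17.2% called lower. The median change of the 11 was 0.65 against 0.08 over all genes. TDRD6, a germ-cell scaffold protein, was at 0.0702, 0 and 1.64 CPM untreated and at 1.79, 0.74 and 2.89 CPM with TSA (edgeR adjusted p = 0.0373). HORMAD1, a meiotic chromosome protein read in untreated A549 alone at 12.8 CPM, was at 1.97 CPM there with TSA (edgeR adjusted p = 0.027). MHCC97H and HCT116 were at 0 with TSA too, so this change rests on 1 untreated and 1 TSA library of A549, without a replicate. MAGEA3, a cancer-testis antigen, changed by -0.58 ± 0.17 (edgeR adjusted p = 0.0267). DNA methylation itself was not measured in these libraries.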

How the data were processed

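Poly(A) RNA of 12 libraries was sequenced, 1 per line and condition. Per the file headers, the deposited tables give the authors' read counts per gene, their RPKM and the longest transcript length of each gene. Per the submitters' processing notes the build was GRCh38 (hg38). Which aligner and counter the authors ran, and whether strand was used, is not given in the sources used here. RPKM rested on library totals 0.18% to 0.223% above the listed counts, and 11 tables held 1 entry with no gene counts, which was dropped. Of 26 gene symbols turned into dates, 23 were restored. Counts were tested with edgeR 4.0.16 (R 4.3.3, quasi-likelihood F test, TMM, filterByExpr, condition and cell line as terms, 6 residual degrees of freedom, common biological coefficient of variation 0.296), with Benjamini-Hochberg adjustment over 16929 genes and a threshold of 0.05. The cell line pairs the libraries of different conditions, since each line gave 1 library per condition. SE is the log2 change divided by the root of F. Within-line log2 ratios used a pseudocount of 1 CPM or, with exact binomial 95% intervals, none, and cover counting error only. DESeq2 1.42.0 and other filters, scalings and left-out libraries were the alternatives. The most similar libraries of a line differed by a chi-square of 10.99 per gene, more than counting error alone gives, so none was the same library sequenced again. This value cannot tell a repeat culture from a different treatment. All 8 members were named in every comparison. From each list of pathway genes the called genes, at most 4 by size of change, were named, otherwise the 2 with the largest change, and the 3 genes most correlated with each member. The values of 1 gene of the methyl donor list are not reported here. Members and lists were chosen with earlier results of these data known. Cell type markers were 8 liver, 6 intestine, 6 lung alveolar and 7 blood, endothelial and stromal genes, the last at a summed 13.0 to 103.5 CPM over the 3 lines.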

Additional observations from a re-analysis of the deposited data

Results flagged for a closer look

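TET2 with TSA had log2 ratios to untreated of -1.26 in MHCC97H and -1.79 in A549 but 0.47 in HCT116, where the counting interval ran from 0.29 to 0.65. It was flagged because the lines moved in opposite directions. Over all genes 26.5% were lower and 28.3% higher in all 3 lines with TSA, so a mixed direction was common. With 1 library per line and condition the difference between lines was not tested.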

How the results depend on the processing

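RLE size factors moved the median change of all genes by at most 0.035 (log2), and they, like another pseudocount, changed no member's call or direction. For TSA against untreated, 0 members and 260 genes were called with no cell line term (no replicate block), 0 members and 0 genes with the 6 libraries alone, and 0 to 3 members and 12 to 6495 genes when a line was left out. For GSK126 against untreated, 7 genes were called with RLE, with no filter and with a filter of 10 CPM in 3 libraries, 434 with the 6 libraries alone, 1206 with 2 members in DESeq2, and 2114 with 3 members without the TSA libraries (DNMT1, TET1 and UHRF1, edgeR adjusted p = 0.0198, 0.0408 and 0.0421). For S2101, DESeq2 called 18 genes, and the 6 libraries alone 25 with 1 member (UHRF1, edgeR adjusted p = 0.0389). For TSA against GSK126, 1 member and 3720 of 11385 genes were called with the 10 CPM filter. With no replicate block 0 members and 14 genes were called, and 0 and 164 with the 6 libraries. When a line was left out, 0 to 3 members and 0 to 5496 genes were called. For TSA against S2101, 2 members and 4160 of 22529 genes were called with no filter. With no replicate block and with the 6 libraries, 0 members and 0 genes were called. When a line was left out, 0 to 3 members and 0 to 5144 genes were called. Without the A549 S2101 library 1926 genes were called. HCT116 against A549 called 0 members without the untreated or the S2101 libraries, with 5099 and 4536 genes in all. Without MHCC97H it called 3 members and 6628 genes. HCT116 against MHCC97H called 6 members and 8052 genes without A549. A549 against MHCC97H called 4777 genes without the untreated libraries and 4203 without the S2101 libraries. Without the TSA libraries it called 5 members and 9085 of 16201 genes. Calls added there were DNMT3B, lower in A549 (-0.99, edgeR adjusted p = 0.000646), and TET1 and TET2, higher (0.92 and 0.75, edgeR adjusted p = 0.0222 and 0.00321). Without HCT116 it called 4 members and 7716 genes. Signs reversed for differences that passed no test. TSA against GSK126 was 0.018 for DNMT1 with the 10 CPM filter, and when a line was left out it ran from -0.41 to 0.35 for DNMT1 and from -1.03 to 0.36 for UHRF1, positive without MHCC97H in both. GSK126 against S2101 ran from -0.15 to 0.018 for TET3 (positive without MHCC97H) and from -1.15 to 0.009 for UHRF1 (positive without A549), and was 0.015 for TET3 without the A549 S2101 library. HCT116 against A549 was -0.16 for TET3 without the TSA libraries, and A549 against MHCC97H was 0.13 for DNMT1 without the GSK126 libraries. Fewer libraries were compared in the fits that left some out; the cause of the other differences was not tested. Depth limits DNMT3L, at 10 reads or fewer in every library, and TET1 in MHCC97H, at 10 reads with TSA.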
